A study of Mus musculus with 6 samples.

Results

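The PYHIN genes form a cluster of interferon-inducible genes on mouse chromosome 1. Accessibility at its peaks was followed in small intestinal crypts with and without Smarcad1, a chromatin remodeler. The members were the 7 genes Pydc3, Pydc4, Ifi203, Ifi204, Ifi205, Mnda and Aim2. A peak was counted when its start fell in a window that runs from within Aim2 to just beyond Ifi205, or when it carried the name of a member gene. This gave 52 of 123510 peaks, between chr1:173377501-173377950 and chr1:174040801-174042900 (GRCm38), 50 of them in the window and 2 in Aim2 before it. The cluster was chosen by the KO minus WT difference of its log2 values in these 6 libraries, so the differences below are a description and carry no test.

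ATAC-seq, which marks open DNA by transposase cutting, was performed on whole crypt nuclei of C57BL/6 mice. The WT group (3 libraries) is labelled wild type, and whether these mice carried loxP sites or Cre is not given in the sources used here. The KO group (3 libraries) had floxed Smarcad1 exons 12 to 14 deleted by Cre under the Villin promoter (Vil-cre), which is active in the intestinal epithelium, so other cells of a crypt preparation keep the gene. Mouse ages were not given. Reads in peaks ranged from 6180717 to 16301164 in WT and from 4339306 to 7721797 in KO. None of the 4 peaks in Smarcad1 covered the floxed exons, so the deletion was not visible in these data. Of 8 epithelial marker genes, 5 had a peak within 1 kb of a start (Cdx1, Cdx2, Cdh1, Lgr5 and Olfm4), and Epcam, Vil1 and Krt8 had none among the peaks analysed.

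PYHIN proteins join a pyrin domain, which binds other pyrin domains, to a HIN domain, which binds DNA. Aim2 senses double-stranded DNA in the cytosol and, through the adaptor Pycard, assembles an inflammasome that activates caspase-1. Ifi204 takes part in DNA sensing upstream of interferon production, while the product of Ifi202b lacks a pyrin domain and restrains Aim2. Many genes of the family are induced by interferons, which act on target genes through the interferon-stimulated response element (ISRE) and the interferon gamma activated site (GAS). The deposited table uses older names for several genes. In the GENCODE annotation used here Pydc4 is Ifi213, Pydc3 is Ifi208, Pyhin1 is Ifi209, Gm4955 is Ifi206, BC094916 is Ifi214 and AI607873 is Ifi207, and Mnda is Ifi211 by a RefSeq synonym.

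The sequences that set the scene are the promoters, since these genes are tandem copies and some of them share nearly the same start region. The RefSeq promoter table (GRCm38.p6) held 14 promoters for 12 of the 13 PYHIN genes annotated in the cluster. Ifi204 had no entry, so the promoter counts leave it out. An ISRE, searched as GAAANNGAAA on both strands, was present in 10 of the 14 promoters and in 3.44% of all 32851 promoters of the same length. It lay in promoters of 9 genes, namely Ifi203, Ifi205, Ifi206, Ifi207, Ifi208, Ifi211, Ifi213, Ifi214 and Mndal. A GAS, searched as TTCNNNGAA, was in 1 of the 14 promoters (Ifi202b) and in 8.30% of all promoters. The ISRE and GAS letters can overlap, but no PYHIN promoter held both. The promoters searched are 300 bases long, and below are the 250 of these that lie before the start, for 4 genes. Capitals mark the ISRE, which those of Ifi213, Ifi208 and Ifi211 hold, and that of Ifi209 is shown because it does not. The Ifi213 promoter lies at chr1:173599273-173599522 (minus strand), that of Ifi208 at chr1:173673415-173673664 (plus strand), that of Ifi211 at chr1:173913047-173913296 (minus strand) and that of Ifi209 at chr1:173630609-173630858 (plus strand).
Ifi213 (Pydc4) promoter: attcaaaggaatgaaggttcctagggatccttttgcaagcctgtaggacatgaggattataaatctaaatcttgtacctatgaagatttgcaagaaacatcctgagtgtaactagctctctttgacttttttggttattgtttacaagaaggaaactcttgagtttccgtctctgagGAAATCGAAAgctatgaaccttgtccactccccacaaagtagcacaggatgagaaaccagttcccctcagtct
Ifi208 (Pydc3) promoter: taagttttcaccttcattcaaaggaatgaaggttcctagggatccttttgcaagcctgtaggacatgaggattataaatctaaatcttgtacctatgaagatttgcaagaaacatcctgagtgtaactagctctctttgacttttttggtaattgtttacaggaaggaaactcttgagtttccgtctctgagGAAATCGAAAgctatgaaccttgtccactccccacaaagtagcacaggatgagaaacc
Ifi211 (Mnda) promoter: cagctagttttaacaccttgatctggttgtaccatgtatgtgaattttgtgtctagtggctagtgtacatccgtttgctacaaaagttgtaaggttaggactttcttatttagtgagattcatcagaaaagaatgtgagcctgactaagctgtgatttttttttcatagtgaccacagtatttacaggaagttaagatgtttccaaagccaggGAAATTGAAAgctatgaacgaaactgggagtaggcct
Ifi209 (Pyhin1) promoter: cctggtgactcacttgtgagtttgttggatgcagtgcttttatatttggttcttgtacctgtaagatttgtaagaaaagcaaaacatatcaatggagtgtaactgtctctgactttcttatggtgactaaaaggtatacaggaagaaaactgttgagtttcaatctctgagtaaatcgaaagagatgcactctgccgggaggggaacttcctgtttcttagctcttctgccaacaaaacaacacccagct

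The exact letters GAAATCGAAA were found in 7 PYHIN promoters, those of Ifi203, Ifi206, Ifi207, Ifi208, Ifi213, Ifi214 and Mndal, and in only 16 of all 32851 promoters (0.0487%). These letters were chosen after the promoters had been read. In each of the 7 the element pointed along the gene, with 25 to 69 bases between it and the RefSeq start. Relative to these letters, counted from 1 at the 5′ end, the promoters of Ifi211 and Ifi205 carry C6T, which still meets the ISRE pattern, and that of Ifi209 carries G1T, which does not. Identity between promoters varied, with a median of 66.8% (62.0% to 99.6%) over the 45 pairs that aligned over at least 150 bases. Some pairs were much closer. The promoters of Ifi206 and Ifi208 were 99.6% identical over 232 aligned bases and those of Ifi213 and Ifi208 99.1% identical over 235. Mndal and Ifi203 promoters were 97.5% identical over 239 bases. A read of 50 bases from such copies can match several places, and the authors kept reads above a mapping quality limit.

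These response elements were mostly outside the called peaks. Of the 14 PYHIN promoters, 1 (7.14%) was overlapped by a peak, the promoter of Ifi205, whereas a peak overlapped 44.2% of all 32851 promoters. Ifi204, which is not among the 14, had a peak over its start, chr1:173766751-173767350, and this peak holds 1 ISRE. In Ifi213 the nearest peak lay 136 bp from the element, in Ifi208 135 bp, and in the other genes with GAAATCGAAA from 1051 to 32164 bp away. Counting every start in the GENCODE annotation, 4 of the 13 genes had a peak over a start (Aim2, Ifi213, Ifi204 and Ifi205), and Ifi208 had one within 1 kb. Ifi211, the gene behind the name Mnda, had no peak in it and none was named for it.

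**Figure D1:**
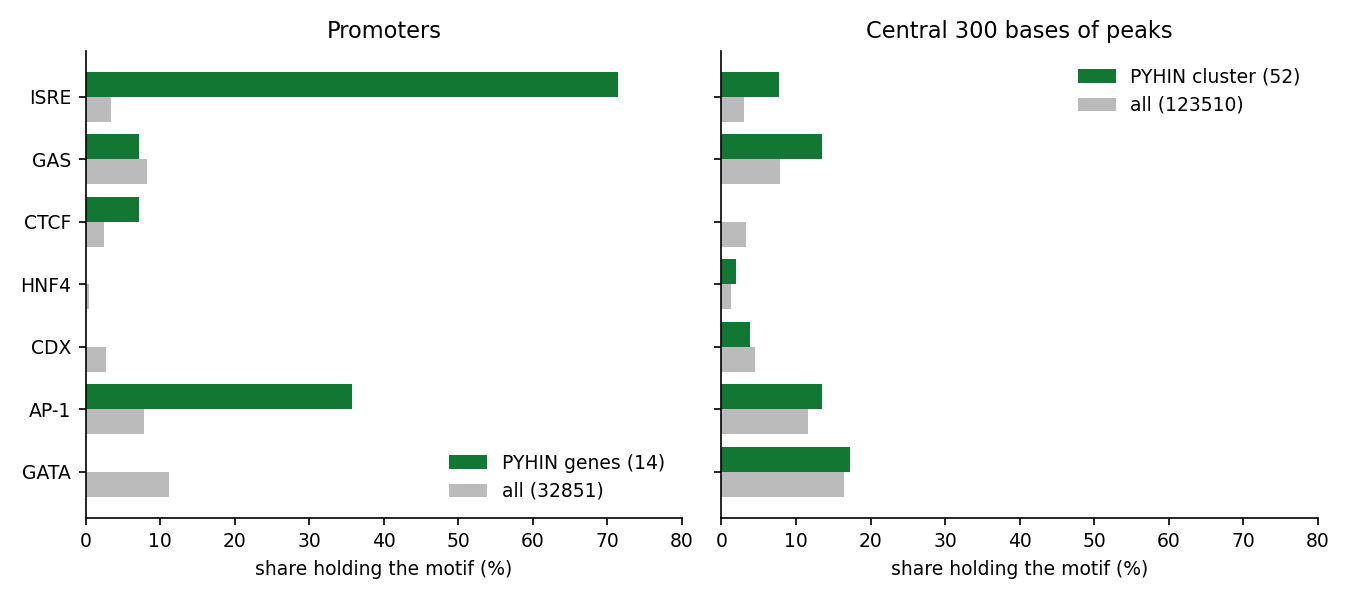
Share (%) of sequences that hold each motif on either strand, in PYHIN promoters against all RefSeq promoters (left, 300 bases each) and in the central 300 bases of cluster peaks against all peaks (right). The ISRE stands at 10 of 14 PYHIN promoters against 3.44% of all, and at 4 of 52 cluster peaks against 3.02% of all.

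The peaks themselves held an ISRE less often than the promoters. In the central 300 bases, an ISRE was present in 4 of 52 cluster peaks (7.69%) and in 3.02% of all peaks, and a GAS in 7 of 52 (13.5%) and 7.81%. Letters for transcription factors of the intestinal epithelium stood near their shares over all peaks, with the HNF4 pattern CAAAGTCCA in 1 peak (1.92% against 1.31% of all peaks) and the CDX pattern TTTATGG in 2 (3.85% against 4.46%). The AP-1 pattern TGANTCA was in 7 peaks (13.5% against 11.6%), the GATA pattern AGATAA in 9 (17.3% against 16.5%) and the CTCF pattern CCANNAGNNGGC in none, while it was in 3.26% of all peaks. In PYHIN promoters the AP-1 pattern was in 5 of 14 (Ifi203, Ifi209 and Mndal), against 7.81% of all promoters. Soft-masked repeat made up a median of 41.9% of a cluster peak (range 0 to 98.0%) and 16.4% over all peaks, and GC content was 46.3% and 47.6%.

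In WT crypts the cluster was a region of weak peaks. The unit throughout is the deposited log2 read count scaled to the largest library, in which the WT mean of the cluster peaks ran from 4.39 to 8.65 with a median of 5.48, and the median over all peaks was 5.79. Of the 52 peaks, 18 lay above the median of all peaks. Values follow the width of a peak (Spearman's rho 0.96 over the 52 peaks and 0.95 over all peaks, each from the same libraries), and cluster peaks had a median width of 600 bp against 750 bp. Divided by peak width in kb and by the reads in peaks of the library (scaled to 1000000), as RPKM, the median was 5.70 in the cluster and 6.43 over all peaks, and 16 cluster peaks exceeded the latter. Peaks in exons (11), introns (21) and between genes (20) had similar WT medians of 5.47, 5.40 and 5.52.

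The 3 strongest peaks of the cluster stood apart from the rest. The first was intergenic, carried no gene name and lay 54.0 kb before the start of Ifi204, at chr1:173820901-173823000. Its log2 values were 8.91, 7.71 and 9.33 in WT and 8.17, 7.40 and 9.40 in KO (114 to 642 reads). The groups overlapped, and the number 2 library was lowest in each. Of the 50-base words of this peak, 83.6% occur once in the genome, and 76.8% of its bases are soft-masked repeat. Its central 300 bases (chr1:173821801-173822100, plus strand) hold 1 GATA pattern, in capitals, and the sequence is shown because it is the most accessible site of the cluster.
Strongest cluster peak, centre: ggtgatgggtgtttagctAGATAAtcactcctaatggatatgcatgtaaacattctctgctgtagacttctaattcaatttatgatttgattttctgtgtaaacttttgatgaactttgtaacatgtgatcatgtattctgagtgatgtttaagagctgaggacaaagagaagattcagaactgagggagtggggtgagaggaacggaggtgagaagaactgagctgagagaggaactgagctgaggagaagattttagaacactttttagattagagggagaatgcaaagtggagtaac

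The second strongest peak, chr1:173418301-173419800, was the most accessible site within a gene. It covered an annotated start of Aim2 in an exon, 67.4 kb beyond the first of the gene's 6 annotated starts. The peak did not overlap the RefSeq promoter of Aim2. Its log2 values were 8.11, 6.97 and 8.80 in WT and 8.53, 6.82 and 9.31 in KO, with means of 7.96 ± 0.93 and 8.22 ± 1.27 (SD, n = 3 each). The groups overlapped, and the KO minus WT difference of 0.26 (SE 0.55) became -0.24 without WT2 and -0.28 without KO3. The third was intergenic, 12.3 kb before the start of Ifi203, at chr1:173955001-173956650. Its values were 8.11, 7.07 and 8.69 in WT and 7.87, 6.56 and 8.50 in KO. The groups overlapped again, with number 2 lowest in both. By RPKM these 3 peaks stood at 14.7, 12.9 and 11.5 in WT, the lowest of them above 88.4% of all peaks, and the next cluster peak stood at 9.43.

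Across the cluster, WT2 gave the lowest WT value at 44 of 52 peaks and KO2 the lowest KO value at 27, compared with 63.4% and 52.6% of all peaks. Reads summed over the cluster, scaled to 1000000 reads in peaks, were 284, 211 and 279 in WT and 243, 227 and 258 in KO. The groups overlapped, at 258 ± 40.8 and 243 ± 15.3 (SD, n = 3 each). Single values rested on 1 to 642 reads, so at the weaker peaks a few reads decide a difference.

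The Pydc4 peak, chr1:173562301-173563350, was the exception in the comparison of KO with WT. Its log2 values were 5.56, 5.27 and 6.07 in WT (24, 21 and 67 reads) and 7.60, 6.33 and 8.57 in KO (89, 56 and 95 reads). All KO values lay above all WT values, with KO3 highest and KO2 nearest to WT. The means were 5.63 ± 0.40 and 7.50 ± 1.12 (SD, n = 3 each), a KO minus WT difference of 1.87 (SE 0.44), or 3.65-fold on the linear scale. The difference was 1.33 without KO3 and 2.45 without KO2. Only 12 of all 123510 peaks had a difference at least as large, counting this one.

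The same peak was among the weakest in WT for its width. Its RPKM was 3.46 in WT, where 21 of all peaks, itself included, were as low or lower, and it ranked last of the 52. In KO its RPKM was 13.8, above 92.1% of all peaks. Put as a share of all reads in the cluster, it took 1.20% in WT1 (95% Wilson interval 0.805 to 1.77), 1.61% in WT2 (1.06 to 2.45) and 1.47% in WT3 (1.16 to 1.87). In KO1 it took 5.84% (4.77 to 7.14), in KO2 3.19% (2.47 to 4.13) and in KO3 8.50% (7.00 to 10.3). These RPKM values, ranks and shares all describe the reads by which the peak was chosen. Which libraries were pooled to call the peaks is not given, so a low WT rank may partly follow from how the peak was called and chosen. The intervals cover counting error within a library only and not the spread between libraries. They also treat reads as independent, although PCR copies were not marked by molecular identifiers.

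**Figure D2:**
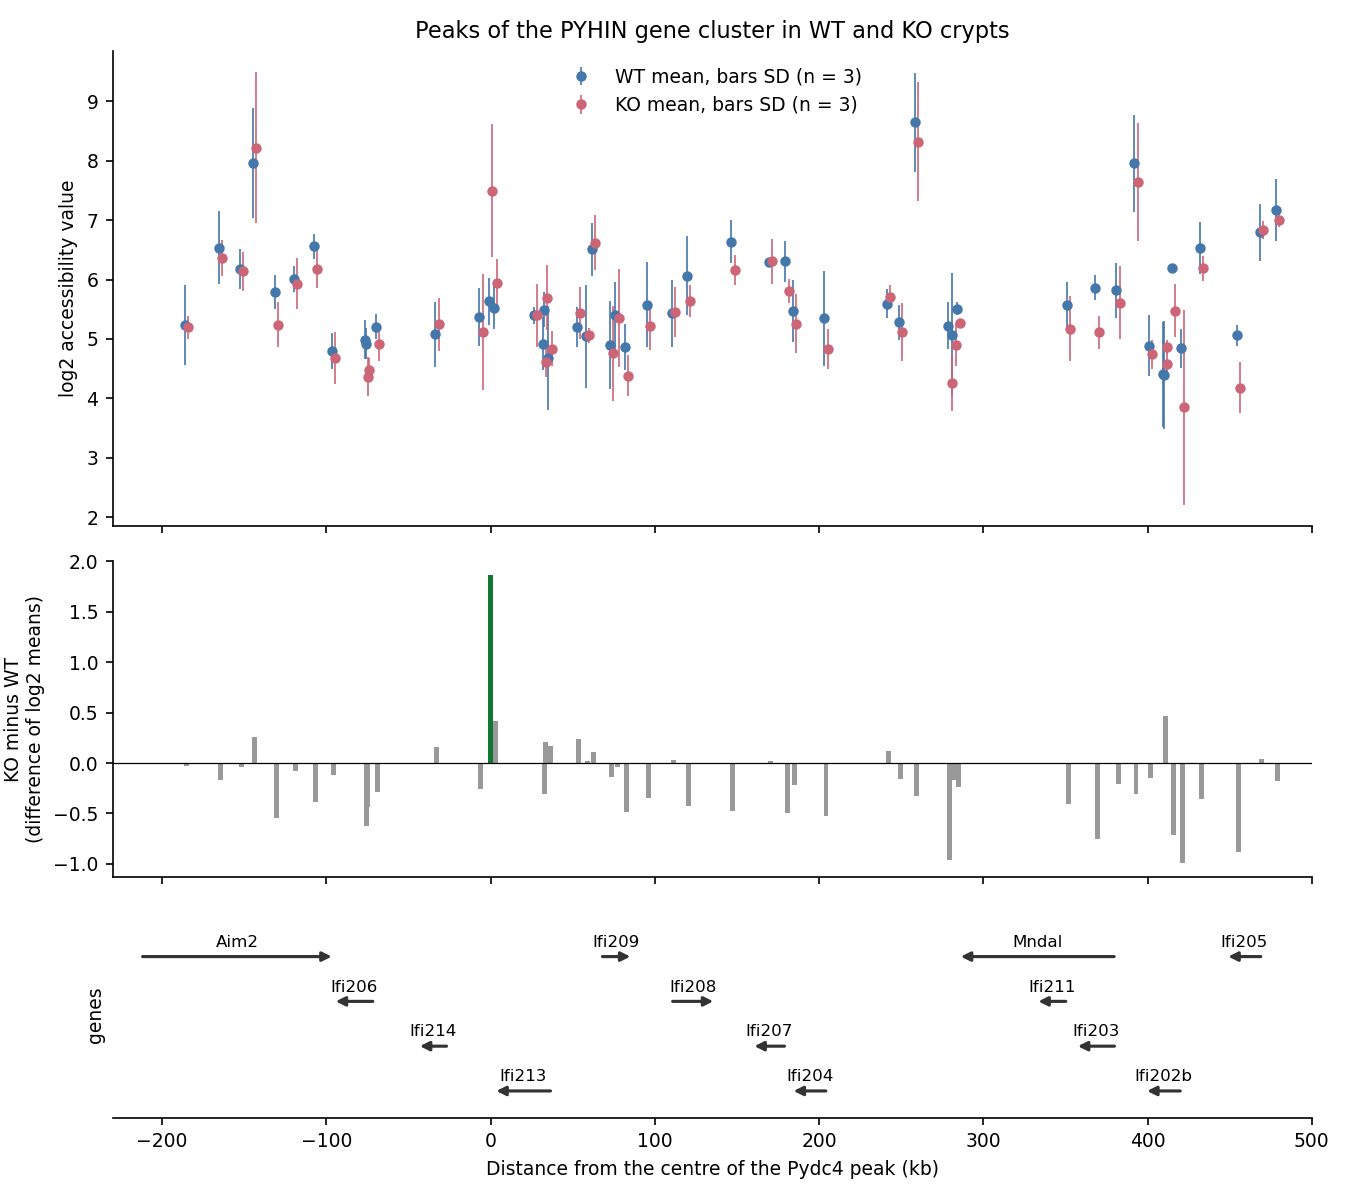
Peaks of the cluster by distance (kb) from the centre of the Pydc4 peak, with WT and KO log2 means and SD (n = 3 each, shifted 1 kb to either side for display), the difference KO minus WT for each peak, and the 13 PYHIN genes as arrows in the direction of transcription. The Pydc4 peak (green bar) differs by 1.87, while the other 51 peaks lie between -0.99 and 0.47.

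The Pydc4 peak does not lie at the promoter of the gene that gives it its name. It was intergenic, 2.93 kb beyond the 3′ end of Ifi213, which is transcribed from the minus strand, and 35.9 kb from the start of that gene. On its other side, the start of Ifi214 was 26.3 kb away. The table's orientation column reads upstream for this peak. Over 6658 peaks checked against the annotation, that word marked peaks beyond the 3′ end of the gene in 4003 cases and peaks before the 5′ end in 4, so it gives the position of the gene relative to the peak. Of the 50-base words of the peak, 93.6% occur once in the genome, and 43.2% of its bases are soft-masked repeat. The whole peak holds no ISRE, 1 GAS and 3 GATA patterns. Its central 300 bases (chr1:173562676-173562975, plus strand), shown because this site differed most, hold the GAS, in capitals.
Pydc4 peak, centre: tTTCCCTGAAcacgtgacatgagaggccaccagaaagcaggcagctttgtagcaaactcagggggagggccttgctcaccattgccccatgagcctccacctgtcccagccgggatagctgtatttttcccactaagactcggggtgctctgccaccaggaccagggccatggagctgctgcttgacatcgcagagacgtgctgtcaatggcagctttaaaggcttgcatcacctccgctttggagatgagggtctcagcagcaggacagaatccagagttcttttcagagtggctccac

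At the neighbours of the Pydc4 peak the WT and KO values overlapped. The next peak, chr1:173565301-173566050, also named Pydc4 and 1950 bp away, had log2 values of 5.62, 5.13 and 5.83 in WT and 5.58, 5.84 and 6.39 in KO. Its difference of 0.41 (SE 0.29) was the third highest of the cluster. On the other side, 5100 bp away, the unnamed peak chr1:173556601-173557200 had values of 5.06, 5.13 and 5.93 in WT and 5.82, 5.52 and 4.00 in KO, a difference of -0.26. In KO3, highest at the Pydc4 peak, this neighbour was the lowest of all 6 values. Both neighbours were also low per kb in WT, with RPKM of 4.49 and 5.12.

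**Figure D3:**
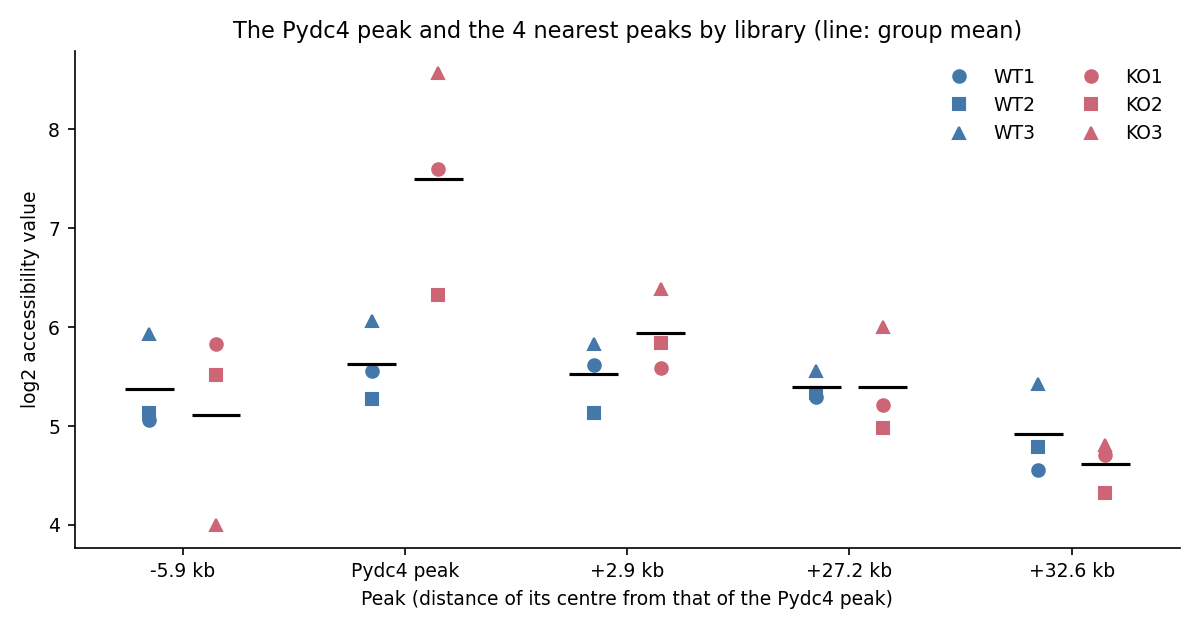
Log2 accessibility values by library at the Pydc4 peak and the 4 nearest peaks of the cluster, labelled by the distance (kb) of their centres. The 3 KO values exceed the 3 WT values at the Pydc4 peak, from 6.33 to 8.57 against 5.27 to 6.07, while at each of the 4 neighbours the ranges of the 2 groups overlap.

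Set against its neighbours library by library, the Pydc4 peak minus the median of the other 51 peaks was -0.06, 0.14 and 0.31 in WT and 2.15, 1.16 and 3.11 in KO (log2). These log2 values are not per length, and the peak is wider (1050 bp) than the median cluster peak (600 bp), so the difference between libraries can be read from them and the level against other peaks cannot. The group means were 0.13 ± 0.19 and 2.14 ± 0.97 (SD, n = 3 each), and the means differed by 2.01. Against the 4 nearest peaks only, the difference was 1.85. The median of the other 51 peaks was 5.50 ± 0.33 in WT and 5.36 ± 0.17 in KO.

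Inside Ifi213 the differences lay within the range of the other cluster peaks. Of the 6 peaks named Pydc4, the 4 within the gene had differences from -0.31 to 0.20. The peak by the start, chr1:173598901-173599200, 74 bp from it and 136 bp from the ISRE, had values of 4.97, 3.69 and 5.36 in WT and 4.58, 4.77 and 5.17 in KO. The groups overlapped there, on 7 to 41 reads. In the 4 peaks within the gene, 65.9% to 100% of the 50-base words occur once in the genome. The share was 75.7% at the peak by the start, so reads from copies may be missing.

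Among the other members, Aim2 carried the most peaks, 8 in all, with WT means from 4.80 to 7.96 and differences from -0.55 to 0.26. Aim2 is also the longest of these genes as annotated, at 115 kb against 16.7 to 24.7 kb for the rest. Pydc3 (Ifi208) had 2 peaks. The stronger, chr1:173682751-173683500 in an exon, had values of 6.65, 5.34 and 6.21 in WT and 5.52, 5.95 and 5.46 in KO, with a difference of -0.42 (SE 0.32). WT2 lay below all KO values, so the groups overlapped. In this peak 79.0% of the 50-base words occur once in the genome. The other Pydc3 peak, 76 bp beyond the start, differed by 0.03.

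Ifi204, a DNA sensor of the family, had 2 weak peaks. The stronger, chr1:173747551-173748150 in an exon, had values of 5.83, 4.88 and 5.70 in WT and 5.12, 4.84 and 5.80 in KO, with a difference of -0.21 (SE 0.33). The groups overlapped, as they did at the peak over the Ifi204 start, which differed by -0.52. In these 2 peaks 88.6% and 75.1% of the 50-base words occur once in the genome, so reads from copies may be missing.

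Ifi203 had 1 named peak, chr1:173944501-173945250, 1.83 kb before its start. Its values were 6.26, 5.34 and 5.86 in WT and 5.93, 4.91 and 6.00 in KO, which overlapped, with a difference of -0.20 (SE 0.33). Of its 50-base words, 82.3% occur once in the genome. Among the 14 promoters searched, which leave out Ifi204, that of Ifi205 was the only one with a peak over a response element, chr1:174031351-174033000. There the values were 7.10, 6.24 and 7.04 in WT and 6.80, 6.71 and 7.00 in KO, with means of 6.79 ± 0.48 and 6.83 ± 0.15 (SD, n = 3 each). The groups overlapped, and the difference was 0.04 (SE 0.29).

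Most of the other differences were small and negative. Of the 52 peaks, 37 (71.2%) were lower in KO than in WT by their means, as were 53.1% of all peaks, and the median difference was -0.17, against -0.02 over all peaks. That median rested on single libraries. It was 0.02 without WT3, -0.05 without WT1, -0.08 without KO2 and -0.43 without WT2, while the median of all peaks moved to 0.08 without WT3 and to -0.14 without WT2. It was -0.08 over the 21 peaks named for a member gene.

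The 3 KO values were below the 3 WT values in 7 cluster peaks (13.5%), where this held in 4.1% of all peaks, and above them in 1 (1.92%), the Pydc4 peak, where it held in 2.7%. The 7 were chr1:173487301-173487600 and chr1:173487601-173487900 in an intron of Ifi206, chr1:173842351-173842650 and chr1:173847451-173848050 between genes, chr1:173931751-173932500 in an intron shared by Mndal and Ifi203, chr1:173978401-173979300 in an intron of Ifi202b and chr1:174018001-174018300 in an intron of Ifi205. Their differences ran from -0.96 to -0.24. With limma on all peaks and Benjamini-Hochberg adjustment, 0 of the 52 were called at 0.05, as were 0 of all 123510 peaks (0%). At an unadjusted p below 0.05 there were 5 in the cluster and 2.28% of all peaks, and voom on the recovered reads called 0 in the cluster and 3 over all peaks. Without KO2, limma called 1 cluster peak, the Pydc4 peak, as it did with the replicate number as a block. Over all 123510 peaks it called 30 without KO2 and 272 with the block. Since the same contrast chose the cluster, nothing is read from these counts.

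The lowest difference was at the Ifi202b peak chr1:173983801-173984100, 1.06 kb before the gene's start, with values of 4.97, 4.46 and 5.09 in WT and 4.45, 5.10 and 2.00 in KO. The KO3 value is 1 read, and without KO3 the difference of -0.99 was -0.07. At the intergenic peak chr1:173842351-173842650 the values were 5.67, 5.05 and 4.95 in WT and 4.82, 3.98 and 4.00 in KO. No KO value reached the lowest WT value, and the difference was -0.96 (SE 0.37). At the intronic Ifi205 peak chr1:174018001-174018300 they were 5.22, 4.88 and 5.09 in WT and 3.71, 4.52 and 4.32 in KO, a difference of -0.88 (SE 0.37) on 5 to 34 reads. Both are mostly repeat sequence, with 98.0% and 97.3% of their bases soft-masked.

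After the Pydc4 peak, the highest difference, 0.47, was at the Ifi202b peak chr1:173973601-173973900, the weakest of the cluster in WT. Its values were 4.43, 3.46 and 5.29 in WT and 4.82, 4.77 and 5.00 in KO. The groups overlapped, and the difference was 0.00 without WT2, which held 6 reads.

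**Figure D4:**
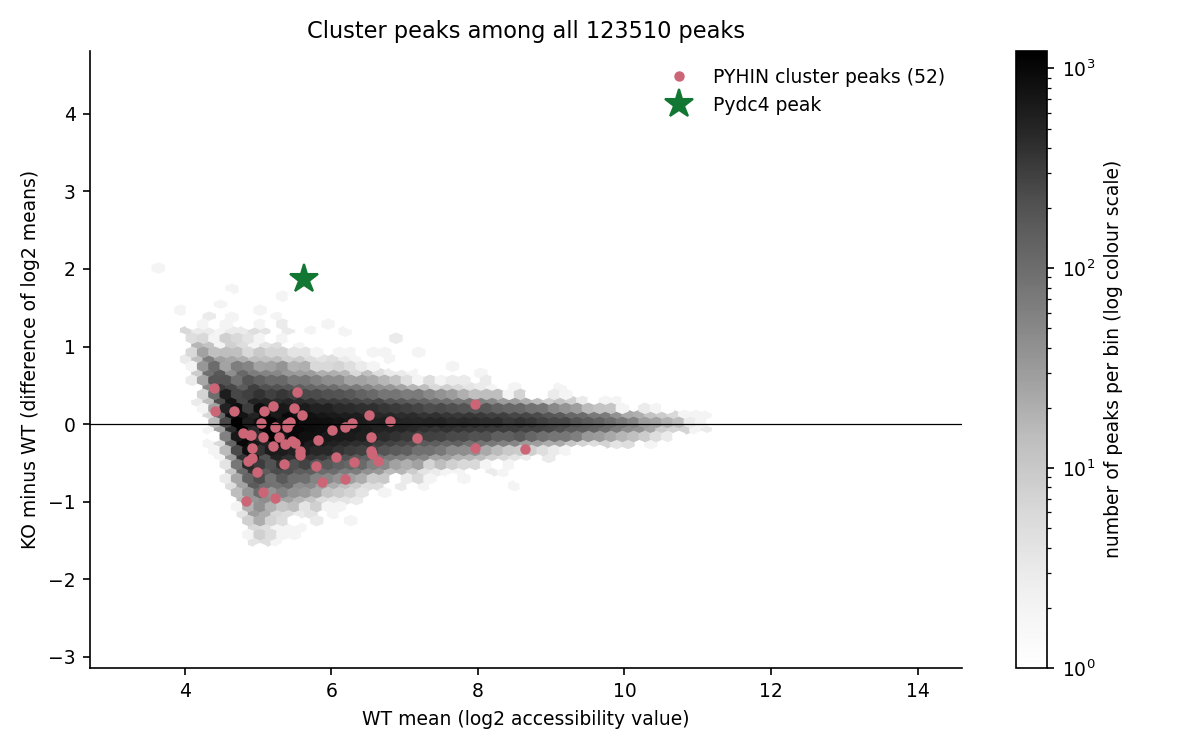
KO minus WT (difference of log2 means) against the WT mean (log2) for all 123510 peaks (grey, number per bin on a log colour scale), with the 52 cluster peaks in red and the Pydc4 peak as a green star. At a WT mean of 5.63 the Pydc4 peak lies at 1.87, and the other cluster peaks, from -0.99 to 0.47, lie within the spread of all peaks.

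Genes that act with the PYHIN proteins lie elsewhere in the genome. The list of DNA sensing and interferon genes held 33 genes outside the cluster, 27 of them with a peak within 1 kb of a start, and 91 peaks within 5 kb, with a median WT RPKM of 8.32, against 5.77 for the 41 peaks within 5 kb of the 13 PYHIN genes and 6.43 over all peaks. At the strongest start peak, adaptors and effectors had a WT RPKM of 14.1 for Pycard, the adaptor of Aim2, 9.73 for Casp1, 7.75 for Gsdmd, which forms pores after caspase cleavage, and 11.2 for Il18, a cytokine matured by caspase-1. Of the interferon receptor subunits, Ifnar1 stood at 28.2, Ifnar2 at 8.84 and Ifngr1 at 31.3, and Ifngr2 had no start peak. Interferon targets included 6.14 for Oas1a and 13.6 for Rsad2. Aim2, the highest PYHIN gene by this measure, stood at 12.9. Il1b and Nlrp3 had no peak within 5 kb.

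The peaks of this list were counted between the groups in the same way, beside the shares over all peaks. With limma over all peaks, 0 of its 91 peaks were called in either direction, as were 0 of all 123510 peaks. An unadjusted p below 0.05 was found for 2 peaks of the list and for 2.28% of all peaks. The voom fit called 0 in the list and 3 over all peaks. All KO values lay above all WT values in 4 peaks (4.40%, against 2.7% of all peaks) and below them in 2 (against 4.1%). The median difference was 0.07, from -0.49 to 0.76. For the 41 peaks near PYHIN genes the median difference was -0.14, and 0 were called.

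Other cell types in a crypt preparation also express PYHIN genes. Reads in start peaks summed over 6 T cell markers, scaled to 1000000 reads in peaks, were 3.50 to 6.31 in WT and 4.38 to 9.71 in KO, and over 6 macrophage markers 5.34 to 9.32 and 5.96 to 7.84. The ranges overlapped, with 4 T cell markers and 5 macrophage markers lacking a start peak, Cd3e, Cd8a and Csf1r among them. Of 3 B cell markers none had one. The 8 epithelial markers summed to 178 to 206 in WT and 179 to 219 in KO, and 4 stromal markers to 32.2 to 37.6 and 37.1 to 39.1. The part of these cells in the differences was not tested, and fewer cells of a type cannot be told from less accessible DNA per cell.

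By the pattern over the 6 libraries, the named peaks outside the cluster most like the Pydc4 peak were those of Gde1 (Pearson's r 0.999), Slc12a8 (0.998), A230004M16Rik (0.997), Ctsq (0.996) and Fam111a (0.995). Their own differences were smaller, at 0.40, 0.46, 0.83, 0.55 and 1.14. These are the 5 highest of all named peaks over 6 points that share their libraries, and no test was made.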

How the data were processed

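ATAC-seq reads were 50 bp long and paired. The authors trimmed adaptors with Trim Galore (0.4.1), mapped to GRCm38 with Bowtie 2 (2.2.5), removed duplicates, applied a mapping quality cutoff and called MACS peaks in SeqMonk. Which libraries were pooled for peak calling is not given in the sources used here. The deposited values are log2 read counts per peak, which the authors scaled to the largest library. A second deposited table holds the peaks and adjusted p-values of the authors' edgeR test of KO against WT and was not used.

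On the linear scale, 100% of values were whole multiples of the value of 1 read (tolerance 0.02 reads), from 1.00 to 3.99 by library, which gave reads and depth. Because the unit is log2, limma (3.58.1, R 4.3.3) was used with lmFit and eBayes with trend, in place of the authors' edgeR. It was fitted to all 123510 peaks and 6 libraries with no covariate, two-sided, with Benjamini-Hochberg adjustment and a threshold of 0.05, and was tested on simulated data. Nothing says whether libraries of a group came from separate mice, so SDs measure the spread between these libraries.

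The members and gene lists were chosen with earlier results of these data known. Full values are given for the Pydc4 peak, the strongest peak of each member gene, the 3 strongest peaks and the 3 largest and 3 smallest differences, plus the 5 outside peaks most correlated with the Pydc4 peak. Peaks whose groups do not overlap, the neighbours of the Pydc4 peak and the peak at the Ifi213 start were named after their values were seen. Genes and exons came from GENCODE vM21 (GRCm38), promoters from RefSeq (GRCm38.p6). Uniqueness was the share of 50-base words of a peak found once in the genome on either strand. Alternatives were centring, quantile normalization, voom on recovered reads, a pseudocount of 5, a minimum linear mean of 30, the replicate number as a block, each library left out, and other thresholds and sets of peaks.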

Additional observations from a re-analysis of the deposited data

How the results depend on the processing

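The count of called cluster peaks was 0 and became 1, the Pydc4 peak, with the replicate block, as did that of the PYHIN gene list (1). Leaving out 1 library gave 0 to 1 for both, with the 1 from the fit without KO2. No other setting called a cluster peak, and the DNA sensing and interferon list stayed at 0 in every setting. Over all peaks the count of 0 became 2 after median centring, 3 with quantile normalization, 3 with voom and 272 with the replicate block, and 0 to 30 when 1 library was left out (1 without WT3, 30 without KO2). The cause was not tested. The numbers 1 to 3 are shared by the titles of both groups, but nothing says what they mark. Deviations of same-numbered libraries from their group means correlated at 0.04, 0.42 and 0.41, and each library correlated best with its own number in the other group except WT1 (0.04 with KO3).

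The difference at the Pydc4 peak was positive in all 12 alternatives, from 1.33 to 2.45, and its excess over its neighbours ran from 1.53 without KO3 to 2.50 without KO2. The peak was chosen by this difference in the same libraries, so its sign under these refits is a description and no support. The cluster median changed sign only without WT3 (0.02). Of 152 values of the 13 named peaks under the alternatives, 152 moved by less than the spread between replicates and 10 changed sign, at 5 peaks. Those were the 3 strongest peaks and the named Ifi203 and Ifi205 peaks. All settings reuse the same libraries, and the replicate block and the minimum mean leave the difference of a peak as it was. The count of small moves is therefore no support for these values. The alternatives restricted to peaks with 90% of words found once, or leaving out the Pydc4 peak, were chosen after seeing the data and gave cluster medians of -0.17 in both cases. Depth limits weak peaks most in KO3, where 1 read counts as 3.99.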
